A study of Malus hupehensis and Malus pumila and Malus sylvestris with 10 samples.

Results

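The 31 most abundant transcripts in the phloem of the crab apple Malus sylvestris are described here. They are the gene IDs listed at 1000 FPKM or more in both libraries of this tree, and they make up 31 of 38700 IDs in the table, or 0.0801%. FPKM is the number of sequenced fragments relative to gene length and to the size of the library, so levels can be compared between genes. The series covers phloem of 5 kinds of apple rootstock, dwarfing and vigorous, taken during active growth at 60 days after bud break. Its M. sylvestris group has 2 libraries, which the labels class as a vigorous control with wild type genotype. The values of the other 8 samples were not analysed here, so no contrast between rootstocks was made. The labels do not tell whether samples 1 and 2 of M. sylvestris are separate trees, and their spread may therefore be technical.

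Phloem carries sugars, amino acids and signals from leaves to roots and growing tips. Its conducting cells, the sieve elements, lose their nucleus as they mature and live on proteins and RNA from adjoining companion cells. Phloem stripped from a stem also holds parenchyma and fibre cells, and often some cambium, so its transcript pool is a mixture. In such bulk samples more cells of a type and more RNA per cell cannot be told apart. The sources used here pair no gene name or product with the IDs, so the members are given by ID and level, and the tissue label was not checked against marker genes.

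The members were chosen by their FPKM in both libraries, so those levels are a description and were not tested. The inferred depth was 18538960 fragments for library 1 and 16572066 for library 2. Every member rested on at least 10509 fragments in library 1 and 11294 in library 2. The members ranged from 1049 to 14857 FPKM in their mean, whereas the median ID of the whole table stood at 4.66 FPKM in library 1 and 4.45 in library 2. The members' own median was 1352 FPKM in library 1 and 1435 in library 2.

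A group of 3 IDs stood above the rest. MD15G1253900 was listed at 14358 FPKM in library 1 and 15356 in library 2. It ranked first in both, at 14857 ± 706 FPKM (SD, n = 2), and exceeded the ID ranked second by 1.98-fold in library 1 and 2.43-fold in library 2. MD05G1028100 held rank 2 in both libraries, at 7243 FPKM in library 1 and 6310 in library 2 (6776 ± 659, SD, n = 2). MD06G1216300 held rank 3 in both, at 5510 FPKM in library 1 and 5767 in library 2 (5638 ± 182, SD, n = 2). The values of MD05G1028100 and MD06G1216300 did not overlap, but their distance was 1.31-fold in library 1 and 1.09-fold in library 2. Below them the level dropped by more than it did anywhere else after the first step, with rank 3 standing 2.12-fold above rank 4 in the mean.

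Another 5 members lay between 2000 and 5000 FPKM in their mean. MD06G1122100, on the same chromosome digits as MD06G1216300, held rank 4 in both libraries with 2592 FPKM in library 1 and 2719 in library 2. Next came MD09G1257900 at 2388 FPKM in library 1 and 2446 in library 2, from the shortest recovered gene of the set, 429 bases. The order of the following members depended on the library. MD05G1289300 stood at 2043 FPKM in library 1 and 2560 in library 2. MD08G1004500 went the other way, with 2320 FPKM in library 1 and 2069 in library 2. MD05G1116600 closed this tier with 1994 FPKM in library 1 and 2169 in library 2.

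A tier of 4 members had means from 1500 to 2000 FPKM. MD13G1161400 was listed at 1790 FPKM in library 1 and 1707 in library 2, and MD03G1295100 at 1564 FPKM and 1835 FPKM in the same order. MD07G1062300 had 1529 FPKM in library 1 and 1581 in library 2. MD05G1345800 had 1378 FPKM and 1627 FPKM. Of these, MD07G1062300 differed least between the libraries, with an SD of 2.40% of its mean.

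**Figure D1:**
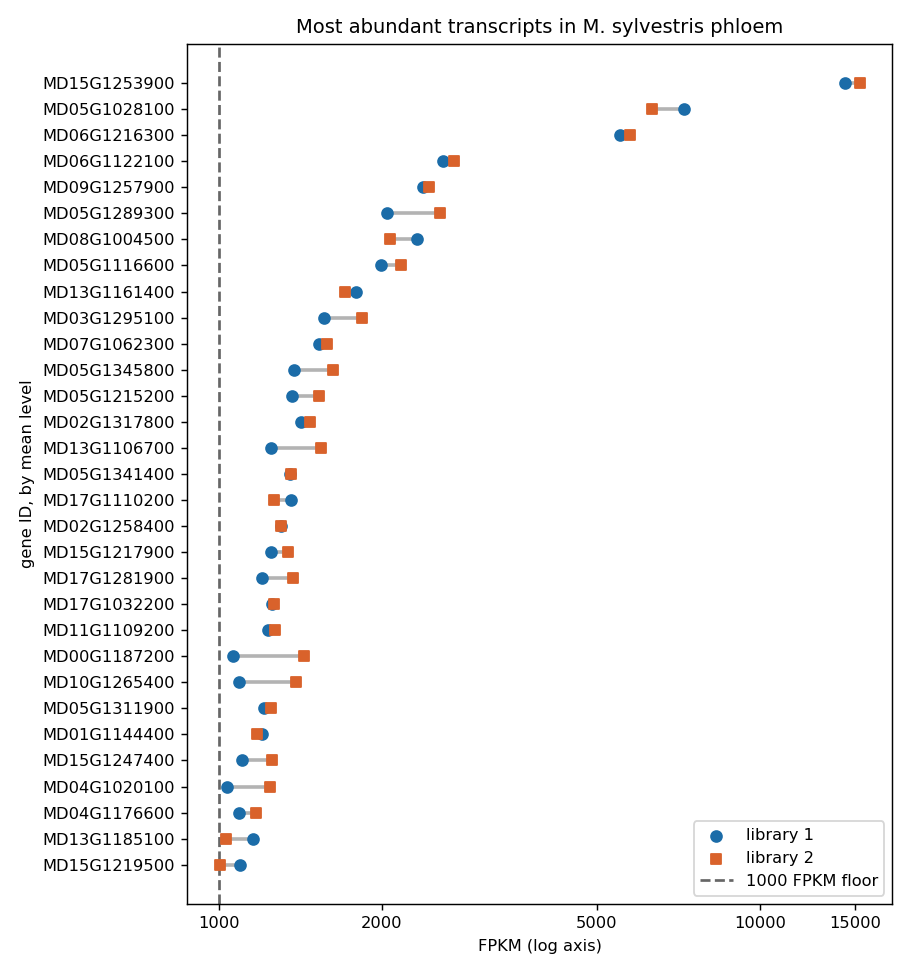
FPKM of each of the 31 members (rows, by mean level) on a log axis, with a circle for library 1, a square for library 2 and a grey line between them; the dashed line is the floor of 1000 FPKM. MD15G1253900 stands alone at 14358 and 15356 FPKM, MD05G1028100 and MD06G1216300 follow, and 19 members crowd between 1000 and 1500 FPKM.

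The other 19 members had means between 1000 and 1500 FPKM. The upper ones among them were MD05G1215200, with 1364 FPKM in library 1 and 1529 in library 2, and MD02G1317800, with 1417 FPKM and 1473 FPKM. MD13G1106700 was listed at 1248 FPKM in library 1 and 1546 in library 2, and MD05G1341400 at 1352 FPKM and 1360 FPKM. MD17G1110200 was among the few members lower in library 2, at 1357 FPKM in library 1 and 1264 in library 2. The closest match between the libraries was MD02G1258400, at 1298.9 FPKM in library 1 and 1299.1 in library 2.

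In the middle of this tier, MD15G1217900 had 1248 FPKM in library 1 and 1342 in library 2, and MD17G1281900 had 1201 FPKM and 1371 FPKM. MD17G1032200 was nearly level, with 1255 FPKM in library 1 and 1264 in library 2, and so was MD11G1109200, with 1232 FPKM and 1267 FPKM. A wider gap was seen at MD00G1187200, whose ID begins with the digits for sequence not placed on a chromosome, with 1060 FPKM in library 1 and 1435 in library 2. MD10G1265400 stood in the lower part of the list in library 1, at 1087 FPKM, and in its middle in library 2, at 1385 FPKM. MD05G1311900 had 1211 FPKM in library 1 and 1247 in library 2.

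Nearest the floor, MD01G1144400 was listed at 1199 FPKM in library 1 and 1175 in library 2, and MD15G1247400 at 1104 FPKM and 1251 FPKM. MD04G1020100 had 1034 FPKM in library 1 and 1244 in library 2, and MD04G1176600 had 1089 FPKM and 1170 FPKM. MD13G1185100 had 1155 FPKM in library 1 and 1030 in library 2. The last member, MD15G1219500, passed narrowly, with 1093 FPKM in library 1 and 1005 in library 2.

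The floor cut through a continuous series of levels. Just outside it were MD04G1198800, with 1087 FPKM in library 1 and 980.04 in library 2, MD05G1360500, with 980.8 FPKM and 977.04 FPKM, and MD14G1005700, with 972.0 FPKM and 977.4 FPKM. Library 1 alone held 33 IDs at the floor and library 2 held 36. Of the 7 IDs that reached it in 1 library only, 2 did so in library 1 and 5 in library 2. MD14G1123200 was the widest apart of these 7, at 1339 FPKM in library 1 and 683 in library 2. It was chosen for mention after its values were seen.

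Below the first 5 ranks most members were not told apart from the next in the list. Of the 30 steps between members next to each other in mean level, 5 were larger than the summed SDs of the members on either side. They were the 4 steps among the 5 highest members and the step from MD05G1116600 to MD13G1161400. The values of both libraries failed to overlap at 6 steps, the sixth being that from MD05G1311900 to MD01G1144400. From MD13G1161400 down to MD15G1219500 no step was larger than the summed SDs. By this measure, members next to each other there were not told apart with 2 libraries. Members further apart in this range could still differ clearly. MD13G1161400, at 1790 and 1707 FPKM, stood well above MD15G1219500, at 1093 and 1005 FPKM.

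The members were a small part of the IDs but a sizeable part of the transcript pool on this scale. Their share of the summed FPKM was 10.3% in library 1 and 10.6% in library 2 (10.4% ± 0.263, SD, n = 2). MD15G1253900 took 2.17% and 2.31% of it, and the other 30 together took 8.08% and 8.32%. The 3 highest held 39.4% of the members' share, and the 6 highest were needed to pass the middle of it. Members ranked 11 to 31 added 3.92% in library 1 and 4.18% in library 2, close to the 4.11% and 4.12% that the first 3 held alone. The 66 IDs with a mean from 500 to 1000 FPKM, below the members, added 7.06% of the sum.

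**Figure D2:**
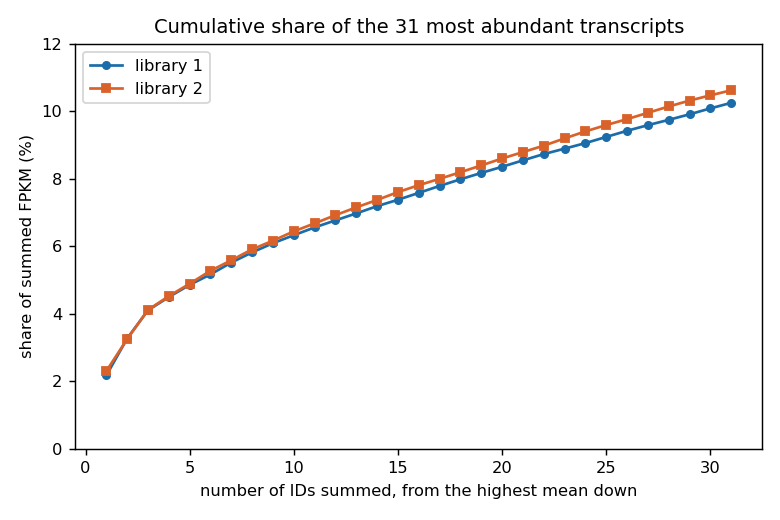
Share of the summed FPKM (%) held by the most abundant IDs, added up from the highest mean down (number of IDs on the x axis), with circles for library 1 and squares for library 2. The curves rise to about 4.1% at 3 IDs and end at 10.3% in library 1 and 10.6% in library 2 at 31 IDs.

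FPKM divides fragments by gene length, so at equal fragments a shorter gene stands higher. Lengths were recovered from the steps between FPKM values and are the smallest that give whole fragments. The true length of some genes may thus be a multiple, and their true fragments the same multiple. The recovered fragments of all IDs add up to 90.2% of the inferred totals, so some are too low. The members' recovered lengths ran from 429 to 3184 bases with a median of 1017 bases, against 1258 bases over the 35889 IDs above 0 in either library and 1055 bases over the 939 IDs that averaged 100 FPKM or more. Of the 31 members, 23 were shorter than the median of the table. Their median was near that of the 939 IDs, so short length was hardly particular to the members among abundant IDs. As the rule used FPKM, which holds the length, this is a description and no test was made.

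Counted in fragments, not divided by length, the same 4 IDs led in the same order. MD15G1253900 had 152523 recovered fragments in library 1 and 145816 in library 2 on a length of 573 bases, which is 0.823% and 0.880% of the inferred totals. MD05G1028100 followed with 139104 and 108335 fragments on 1036 bases. MD06G1216300 had 115733 and 108280 fragments on 1133 bases, and MD06G1122100 had 110090 and 103234 on 2291 bases. The distance between these leaders was thus much smaller in fragments than in FPKM.

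Further down, the lists differed. Among the 31 IDs with the most recovered fragments 19 were members (61.3% of each list), with a median length of 1199 bases. The 12 members left out had a median length of 655 bases and fell as far as rank 108 by fragments, the place of MD04G1020100, whose recovered length was 548 bases. MD15G1247400, at 553 bases, came at rank 98 and MD03G1295100, at 438 bases, at rank 75. In the other direction MD02G1317800, the longest member at 3184 bases, moved from rank 14 by FPKM to rank 5. The 12 IDs that took the vacant places had means from 389 to 1011 FPKM and a median length of 2258 bases. A length recovered too small lowers the fragments with it. Short length and low rank by fragments may therefore be linked partly by construction, and the overlap of 19 depends on the recovery. The members' recovered fragments were 6.92% of the inferred total in library 1 and 7.15% in library 2, beside 10.3% and 10.6% of summed FPKM. These shares have unlike bases. All recovered fragments make up only 90.2% of the inferred totals, whereas the FPKM share is out of the sum over all listed IDs. Part of the distance between them comes from this.

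Agreement between the libraries was close for most members. The SD was 5.14% of the mean at the median member, under 5% at 13 members and over 10% at 7. Of the 31, 8 held the same rank in both libraries, and the median member moved by 2 ranks. MD00G1187200 gained the most, 16 ranks from 32 in library 1 to 16 in library 2. MD17G1110200 fell by 8 ranks, from 15 to 23. Across the 31 members, which are not independent replicates, FPKM had a rank correlation of 0.867 and log2 FPKM had a Pearson's r of 0.983. Without the 3 highest, Pearson's r was 0.913 over 28 members. Both libraries had to reach the floor, which limits how far a member could fall.

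Most members stood slightly higher in library 2. On the log2(FPKM + 1) scale, library 2 minus library 1, 24 members were higher and 7 lower, with a median of 0.07 and a range from -0.20 to 0.44. Over the 939 IDs that averaged 100 FPKM or more the median was 0.04 and 60.3% were higher, and over the 27203 IDs that averaged 1 FPKM or more the median was -0.02 and 46.3% were higher. The SD of the difference was 0.16 over the members, 0.22 over the 939 IDs and 0.30 over the 27203 IDs. Since the rule used both columns, nothing particular to the members is read from this.

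A difference of over 0.32 on this log2 scale was found at 3 of the 31 members, all higher in library 2. The background was 11.2% of the IDs that averaged 100 FPKM or more (7.67% higher in library 2 and 3.51% lower) and 18.7% of those that averaged 1 FPKM or more. The 3 were MD00G1187200, MD10G1265400 and MD05G1289300. The count rests on the position of the limit, as no member was over 1.5-fold apart on the same scale, against 1.81% of the 939 IDs.

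Counting error was small beside the distance of the ratios below from 1, but not beside their distance from the limit. MD00G1187200 had a ratio of library 2 to library 1 of 1.35 (95% exact interval 1.32 to 1.38), on 14835 and 17957 fragments. MD10G1265400 had a ratio of 1.275 (1.249 to 1.301), on 16943 and 19308 fragments. MD05G1289300 had a ratio of 1.253 (1.24 to 1.27), on 34956 and 39161 fragments. At the lower end MD05G1028100 had a ratio of 0.871 (0.864 to 0.878), on 139104 and 108335 fragments. MD13G1185100 and MD08G1004500 both stood at a ratio of 0.892, with intervals of 0.876 to 0.908 and 0.881 to 0.903. These intervals cover counting error only and compare 2 libraries of 1 rootstock, with no replicate on either side.

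**Figure D3:**
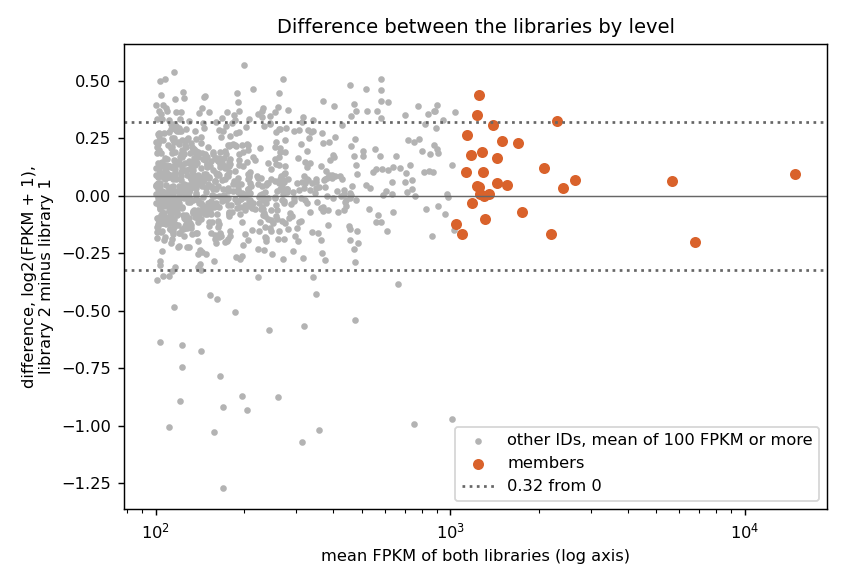
Difference between the libraries (log2(FPKM + 1), library 2 minus library 1) against mean FPKM on a log axis for the 939 IDs that averaged 100 FPKM or more, with the 31 members as large points and dotted lines at 0.32 above and below 0. The members lie between -0.20 and 0.44, and 3 of them lie above the upper line.

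The digits after MD give the chromosome in common apple gene IDs, where 00 marks unplaced sequence. That this table follows the same scheme is an assumption. The numbers that follow run along the chromosome in steps of 100. The members fell on 15 of the 18 digit groups. MD05 held 7 of them, where a share equal to its part of all IDs (6.97%) would be 2.16. MD15 held 4, where its part of all IDs (8.86%) would give 2.75. MD13 and MD17 held 3 each, MD02, MD04 and MD06 held 2 each, and 8 groups held 1. No member was on MD12, MD14 or MD16, whose highest mean levels were 1036, 1011 and 880 FPKM. With so few members per group no test was made. At a floor of 500 FPKM, MD05 held 11 of 94 IDs and MD15 held 12, beside 6.97% and 8.86% of all IDs.

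A few members made up a visible part of the sum of some chromosomes. MD05 took 8.49% ± 0.0201 of the summed FPKM (SD, n = 2), of which its 7 members made up 2.52%. Of the sum without any member, MD05 took 6.67%, close to its 6.97% of the IDs. MD15 took 11.5% ± 0.176 (SD, n = 2), of which its 4 members made up 2.77%. Of the sum without any member it still took 9.75%, against 8.86% of the IDs. MD06 went from 5.33% ± 0.0285 (SD, n = 2) with its 2 members to 4.56% of the sum without any.

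**Figure D4:**
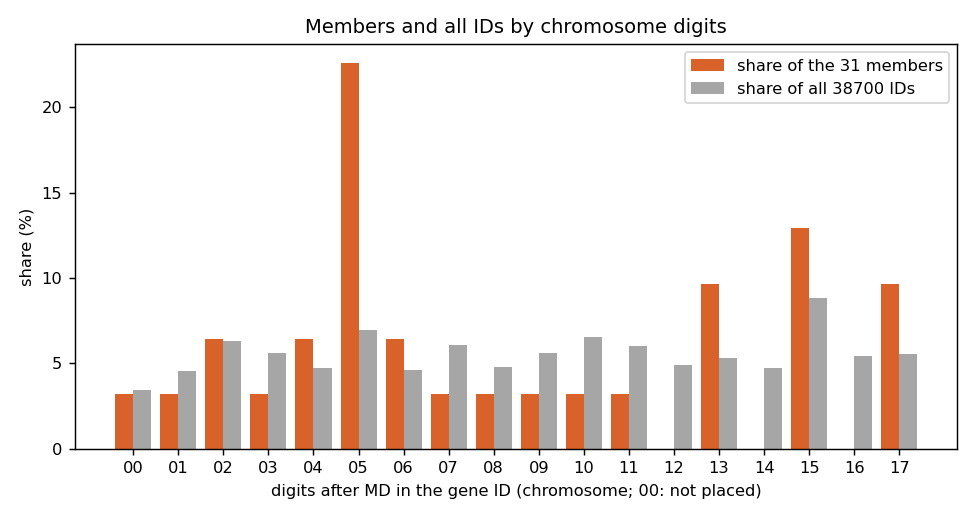
Share (%) of the 31 members and of all 38700 IDs by the digits after MD in the ID (x axis; 00 is sequence not placed on a chromosome). MD05 holds 7 members, or 22.6%, beside 6.97% of the IDs, and MD12, MD14 and MD16 hold none.

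The spacing of the members was also counted. Of the 465 member pairs, 0 had ID numbers at most 1000 apart on the same chromosome digits, against 0.0387% of all pairs of IDs. So small a share predicts under 1 such pair, and nothing particular to the members is read from the count. The nearest pair was MD15G1217900 and MD15G1219500, 1600 apart with 9 listed IDs between them, at means of 1295 and 1049 FPKM. MD05G1341400 and MD05G1345800 were 4400 apart with 34 listed IDs between them, and MD15G1247400 and MD15G1253900 were 6500 apart with 47. Of all member pairs, 36 (7.74%) shared their chromosome digits, against 5.79% of all pairs of IDs.

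The IDs around the members were mostly not abundant. The 493 IDs within 1000 in ID number of a member had a median of 5.002 FPKM, against 4.57 FPKM over the table. Of these IDs, 15 (3.04%) had a mean of 100 FPKM or more, where the background was 2.43% of all IDs. The median member stood 25.6-fold above the highest ID around it. MD15G1253900 was 787-fold above its highest neighbour, which had 18.9 FPKM, and MD05G1028100 was 158-fold above its own, at 42.9 FPKM.

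A few members had an abundant ID directly beside them. Of the 49 IDs listed 1 step from a member, 4 (8.16%) had a mean of 100 FPKM or more, against 2.43% of all IDs. With so few IDs the difference was not tested, and nothing particular to the members is read from it. These 4 were chosen for mention after their values were seen. MD01G1144300 adjoined MD01G1144400 and missed the floor with 852 FPKM in library 1 and 970 in library 2, on a recovered length of 431 bases against 957 bases for the member. MD05G1311800 adjoined MD05G1311900 and had a mean of 429 FPKM. MD05G1289200 adjoined MD05G1289300 with 492 FPKM in library 1 and 634 in library 2. MD10G1265300 adjoined MD10G1265400 with 302 FPKM and 380 FPKM. The sources used here do not say how reads of near-identical copies were assigned, so if adjacent IDs are such copies their levels are uncertain.

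The apple genome carries an old duplication of the whole genome, after which long stretches of chromosomes 3 and 11, 5 and 10, 9 and 17, and 13 and 16 remained as pairs. Shorter stretches are shared by 1 and 7, 2 and 7, 2 and 15, 4 and 12, 12 and 14, 6 and 14, and 8 and 15. Of the 465 pairs of members, 26 (5.59%) fell on such chromosome pairs, against 7.44% of all pairs of IDs. On the 4 long pairs there were 11 member pairs (2.37%), against 2.79% of all pairs of IDs. MD05 and MD10 gave 7 of these 11, MD09 and MD17 gave 3, MD03 and MD11 gave 1, and MD13 and MD16 gave none, since MD16 held no member. Both shares were near the background and are read as no result about the members.

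Of the 26 member pairs, 1 (3.85%) lay within 5 percentage points of the same place on both chromosomes, against 9.75% of all pairs of IDs on these chromosomes. The count is thus no result about the members, and the pair is described for its values alone. MD05G1289300 stood at 79.3% of the ID numbers of MD05 and MD10G1265400 at 77.5% of those of MD10. Their mean levels were 2302 ± 366 and 1236 ± 211 FPKM (SD, n = 2). The recovered lengths were 923 and 841 bases. They are also 2 of the 3 members over 0.32 higher in library 2 on the log2 scale, with ratios of 1.253 and 1.275.

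The IDs just before this pair had levels within 2-fold of each other at 4 of the 5 nearest distances. These distances were picked after the values were seen. No such count was made for other pairs, so it has no background. At 100 below the member, MD05G1289200 had a mean of 563 FPKM and stood 1.29-fold higher in library 2 than in library 1, and MD10G1265300 had 341 FPKM and stood 1.26-fold higher. These neighbours thus differed between the libraries in the same direction as the members, as did most abundant IDs. Of those that averaged 100 FPKM or more, 60.3% were higher in library 2. At 200 below, the means were 3.78 FPKM on MD05 and 3.63 FPKM on MD10. At 300 below they were 3.90 and 0.964 FPKM, at 400 below 28.7 and 46.2 FPKM, and at 500 below 68.8 and 65.8 FPKM. The IDs at 400 and 500 below were not higher in library 2, with ratios from 0.819 to 0.986. Those at 200 and 300 below went both ways, with ratios of 0.812 and 1.207 on MD05 and 1.516 and 0.736 on MD10.

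This likeness did not extend above the members. At 100 above, the means were 19.3 FPKM on MD05 and 6.20 FPKM on MD10, and at 400 above they were 0.876 and 25.6 FPKM. Over the 14 distances listed on both sides, neighbour levels had a rank correlation of 0.310. Over all 26 member pairs on duplicated chromosomes this correlation had a median of 0.01 and ran from -0.515 to 0.685, and 5 other pairs were above 0.310, so it did not single out this pair. The match was noticed after the values were seen. Whether the IDs are copies of each other was not tested, as no sequences were used here.

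**Figure D5:**
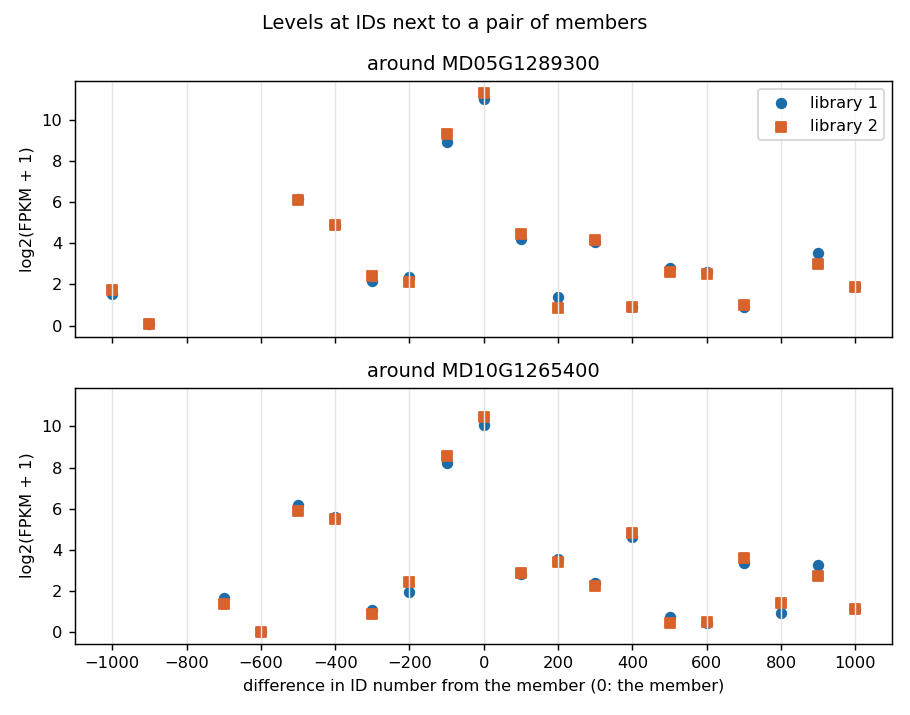
Level (log2(FPKM + 1)) of the IDs within 1000 in ID number of MD05G1289300 (upper panel) and MD10G1265400 (lower panel), by difference in ID number from the member at 0, with circles for library 1 and squares for library 2. In both panels the ID at -100 is the second highest, and those at -500 and -400 are above those at -300 and -200.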

How the data were processed

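Phloem RNA of 2 M. sylvestris samples was analysed out of 10 samples. Per the labels, libraries came from total RNA with a stranded mRNA kit. The submitters' processing notes list HTSeq, Cufflinks, HISAT2 and Trimmomatic with no version or role. The build and the annotation are unknown here. The authors deposited FPKM values, per the labels, for 38700 IDs. Columns were matched to samples by species and replicate number.

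Members had 1000 FPKM or more in both libraries. Members and lists were chosen with earlier results of these data known. Every member is named; IDs beside them are the 3 just under the floor and those within 1000 in ID number. Differences were taken in log2(FPKM + 1), a pseudocount of 1, and 0.32 was the limit (0.58 as an alternative). The ratio of the library totals was the commonest ratio between the columns. The total was the largest at which at least 55% of lengths of genes with small whole ratios came out whole within 0.003 of a base. The smallest length from 50 to 30000 bases that gave whole fragments in both libraries was then taken for each gene. Together these fragments make up 90.2% of the totals. On simulated libraries built from the recovered lengths, the totals of both libraries were recovered exactly. As the simulation starts from these lengths, it cannot tell whether the lengths and fragments of single genes are the true ones. Intervals of ratios are exact binomial (Clopper-Pearson), at 95%. Scripts used Python 3.11.15, numpy 2.4.6, pandas 2.3.3 and SciPy 1.17.1. With 1 group there was no comparison of conditions and no p-value.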

Additional observations from a re-analysis of the deposited data

How the results depend on the processing

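The number of IDs at the floor in both libraries was 31. It became 94 at a floor of 500 FPKM, 7 at 2000 FPKM and 66 when each library was scaled to a sum of 1000000, and was 33 to 36 with 1 library alone, 35 by the mean and 38 in either library. The members' share of summed FPKM, 10.4%, became 17.5% at a floor of 500 FPKM, 5.55% at 2000 FPKM, 7.03% in recovered fragments and 8.20% without MD15G1253900, the last chosen after the data were seen. It ran from 10.3% to 10.6% with 1 library alone. The count of members over 0.32 apart on the log2 scale, 3 of 31, was 0 at a limit of 1.5-fold. Rescaling by the median ratio (log2 shift -0.02) gave 4 of 31. At a floor of 500 FPKM it was 17 of 94 IDs (14 higher and 3 lower in library 2). Of the IDs that averaged 100 FPKM or more, 11.2% were over 0.32 apart (7.67% higher and 3.51% lower), and 1.81% were over 1.5-fold apart. The median difference was 0.07 and ran from 0.07 to 0.10 over its alternatives. Member pairs with close IDs, 0 at a distance of 1000, were 1 at 2000, and 2 of 4371 at a floor of 500 FPKM. The background was 0.0387% of all ID pairs at 1000 and 0.0769% at 2000, so these counts are near it. The share of member pairs on duplicated chromosomes, 5.59%, was 2.37% for the 4 long pairs, 7.09% at a floor of 500 FPKM and 4.76% at 2000 FPKM. The choices of floor, limit and distance change these counts by construction. Depth does not limit the members, each with at least 10509 fragments per library, but 2 libraries limit their order. No paired analysis was possible because values of 1 group only were analysed.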
